A study of Mus musculus with 12 samples.

Results

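Pparg and 9 genes of lipid droplet proteins were followed in the livers of 12 mice on high-fat diet (HFD), as the rows of the expression table that carry the symbols Pparg, Cidea, Cideb, Cidec, Plin2, Plin4, Plin5, Fitm1, Fitm2 and G0s2. These 10 genes, all of them found, were among 23849 symbols. The mice were male C57BL/6 animals, 8 weeks of age in the labels, and all were fed HFD for 6 weeks. They received Policaptil Gel Retard, a gel-forming fiber product that the labels call Libramed, or its vehicle by gavage during the last 2 weeks. Livers were taken at ZT0, when the lights come on and the active phase of the mouse ends, or at ZT12, when it begins, which gives 4 groups of 3 mice. The paper gives the gavage as daily, shortly before the lights go off. By this schedule ZT12 livers came soon after a gavage and ZT0 livers long after one. Time of day and time since gavage therefore cannot be told apart. All 4 groups share the diet, and mice on normal diet were not analysed here, so that no value below is a difference made by HFD. RNA was measured by RNA-seq of whole liver and is given in FPKM, which are reads scaled by gene length and by the reads of the library. In whole liver, fewer cells of a type and less RNA per cell cannot be told apart.

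Hepatocytes keep triglyceride in lipid droplets, which are cores of neutral lipid enclosed by a single layer of phospholipid and a coat of proteins. PPARγ, encoded by Pparg, is a nuclear receptor that binds DNA together with RXR and drives fat storage in adipocytes, and its level in liver is low unless the liver turns fatty. Cidec, Cidea and Plin4 are droplet genes of adipocytes that appear in fatty liver, and Cidec and Cidea act at contacts between droplets, through which lipid moves into the larger droplet. Plin2 and Plin5 are the main perilipin coats of hepatocyte droplets, Cideb acts in droplet fusion and in the loading of VLDL with lipid, and Fitm2 is a protein of the endoplasmic reticulum needed for droplets to bud. Fitm1, best known from skeletal muscle, is the paralog of Fitm2, and G0s2 inhibits adipose triglyceride lipase, the first enzyme of droplet breakdown. From this background, Pparg, Cidea, Cidec and Plin4 are called steatosis-linked and Plin2, Plin5, Cideb and Fitm2 constitutive, while Fitm1 and G0s2 are in neither class.

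The bases before the transcription start are shown for Cidec and Plin4, the steatosis-linked genes that changed with time in both treatments, for Plin2, which changed the other way, and for Pparg itself. They were taken from RefSeq (GRCm38.p6, the build of the authors' mm10), run 5′ to 3′ on the strand of the gene and stop before the first exon. Capitals mark matches to the motifs below, and a sequence with no capitals has none.
Cidec, chr6:113435761-113436010, minus strand: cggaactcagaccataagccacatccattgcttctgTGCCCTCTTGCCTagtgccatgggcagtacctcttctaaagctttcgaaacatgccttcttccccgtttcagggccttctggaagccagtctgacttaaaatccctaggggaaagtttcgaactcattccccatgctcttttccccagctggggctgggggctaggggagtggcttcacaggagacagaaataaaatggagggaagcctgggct
Plin4, chr17:56109804-56110032, minus strand: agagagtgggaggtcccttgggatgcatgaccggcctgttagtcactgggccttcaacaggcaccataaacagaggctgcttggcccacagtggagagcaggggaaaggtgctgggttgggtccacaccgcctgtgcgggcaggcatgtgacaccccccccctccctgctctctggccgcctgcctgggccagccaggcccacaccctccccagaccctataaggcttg
Plin2, chr4:86670061-86670309, minus strand: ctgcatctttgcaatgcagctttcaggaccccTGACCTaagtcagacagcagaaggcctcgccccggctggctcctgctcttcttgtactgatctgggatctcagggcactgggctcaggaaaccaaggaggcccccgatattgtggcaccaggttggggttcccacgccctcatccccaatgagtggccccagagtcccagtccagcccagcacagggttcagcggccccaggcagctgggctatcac
Pparg, chr6:115421816-115422065, plus strand, before one of its internal starts: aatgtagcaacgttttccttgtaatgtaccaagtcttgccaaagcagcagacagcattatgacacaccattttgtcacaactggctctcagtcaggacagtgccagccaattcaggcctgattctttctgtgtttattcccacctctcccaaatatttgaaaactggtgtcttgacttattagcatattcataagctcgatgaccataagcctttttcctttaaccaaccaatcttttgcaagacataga
The motifs were searched on both strands in the 250 bases before each start, in 13 windows that RefSeq gives for 9 of the 10 genes and in 32851 windows of all genes. The PPAR:RXR element DR1, 2 copies of AGGTCA on the same strand with 1 base between them, was in 0.0335% of all windows and in 0 of the 13. Looser forms were tried after this. The form with 2 copies of AGGNCA, in 0.338% of windows, was in 0 of the 13 as well, and AGGNNA followed after 1 base by AGGNCA, in 0.776%, was in 1, that of Cidec, on the opposite strand at −214 to −202 from the start. The half-site AGGTCA, which the full forms can contain, was in 4 of the 13 windows, 1 of Plin2, 1 of Plin5 and 2 before other starts of Pparg that are not shown, and in 14% of all windows. The E-box CACGTG (6.02% of windows), the D-box TTATGTAA (0.819%) and the cAMP response element TGACGTCA (1.55%) were in 0 of the 13. These are matches of letters in short windows, and no binding was measured.

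The library totals were similar. FPKM summed to between 634683 and 759355 per library, the relative depth ran from 0.712 to 1.28, and the absolute depth is unknown because the table holds no read counts. Albumin, the most abundant hepatocyte transcript, is listed at 0 in all 12 libraries, so a 0 in the table can be a failed estimate, while 9 of 10 other hepatocyte markers were in the table and summed to 59896 to 82626 FPKM. One library stood apart: the 8 skeletal muscle markers summed to 56.6 FPKM in Policaptil ZT12 replicate 3 and to between 0.943 and 1.60 FPKM in the other 11. Calls of the 10 genes and counts of the lists are also given without that library where they changed. Differences of single list genes and sums of markers are given with it only. The share of all genes called without that library is not given by itself. With 1 library left out at a time, 2329 to 2797 of 9806 genes tested had p under 0.05 for time with Policaptil Gel Retard. For the treatments at ZT12 the range was 485 to 889.

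The 10 genes spanned 3 orders of magnitude in level. Over the 12 libraries the mean was 372 FPKM for G0s2, 336 for Cideb, 268 for Plin2, 90.6 for Fitm1, 38.9 for Plin5, 10.2 for Fitm2, 5.72 for Pparg, 3.53 for Plin4, 2.09 for Cidec and 0.337 for Cidea. All 4 steatosis-linked genes therefore had lower means than each of the other 6. Some neighbours in this order did not differ beyond their spread, since G0s2 was above Cideb in 6 of 12 libraries and Pparg above Plin4 in 9 of 12. Plin2 was above Fitm1, Plin5 above Fitm2 and Cidec above Cidea in 12 of 12.

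Within the CIDE family, Cideb held between 98.3% and 99.9% of the summed FPKM of Cidea, Cideb and Cidec. Its own level was the steadiest of the 10 genes, at 336 ± 21.1 FPKM (SD, n = 12). The share of Cidec was 0.357% ± 0.201 in vehicle ZT0 and 1.18% ± 0.223 in vehicle ZT12, against 0.200% ± 0.0788 and 0.766% ± 0.298 with Policaptil Gel Retard (SD, n = 3). Among the perilipins Plin2, Plin3, Plin4 and Plin5, Plin2 held between 73.7% and 84.8% and Plin4 between 0.170% and 3.42%. The rise of the adipocyte-type members thus took place on a minor share of each family.

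**Figure D1:**
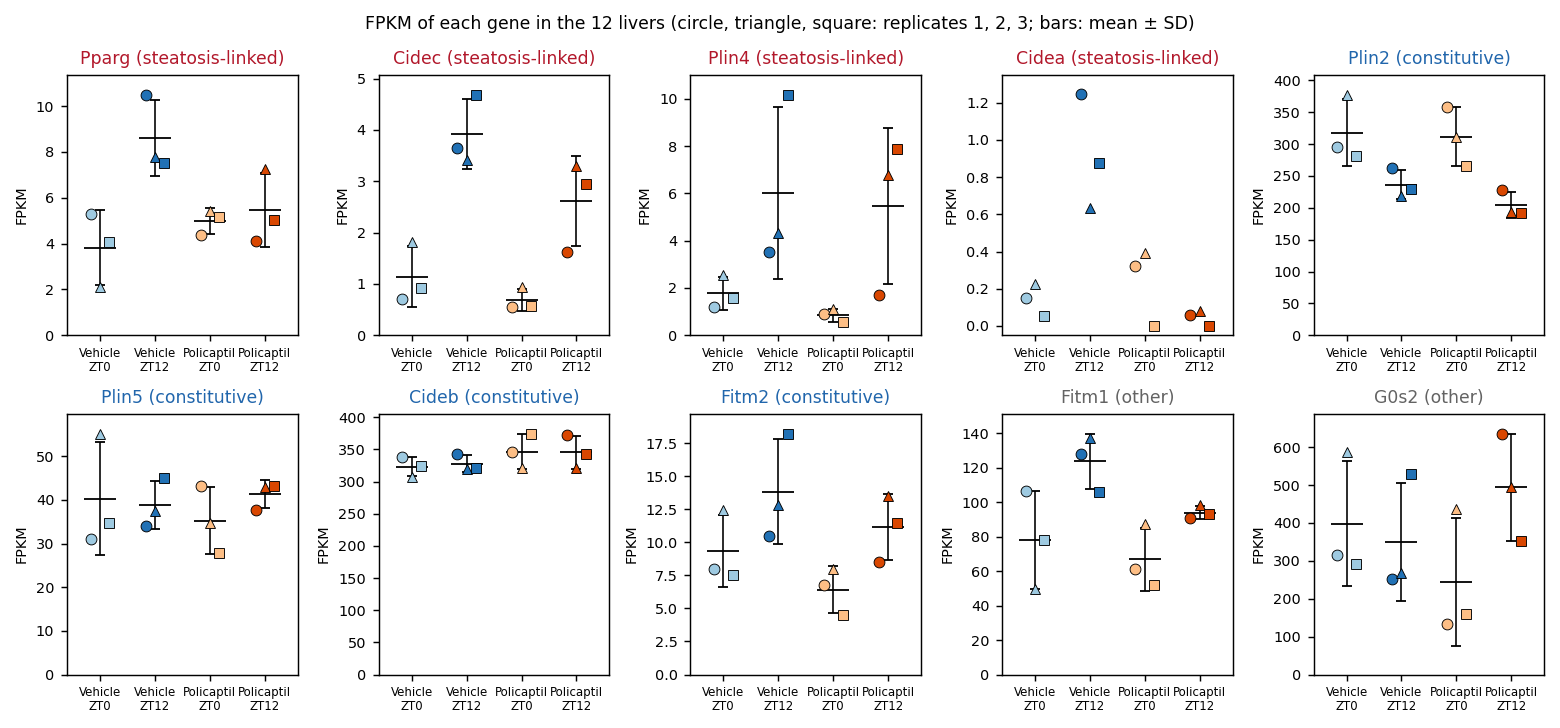
FPKM (vertical axes, linear from 0) of each gene in the 4 groups (horizontal axes); each point is 1 mouse, with circle, triangle and square for replicates 1, 2 and 3, and the bars are mean ± SD (n = 3), left out for Cidea, which is listed at 0 in 2 libraries. The 3 vehicle ZT12 points of Pparg (7.52 to 10.5) lie above the other 9 points, Cidec and Plin4 are high at ZT12 in both treatments, and Cideb is level.

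Steatosis-linked genes came up at ZT12 in vehicle-treated mice. Pparg, Cidec and Plin4, the 3 of the 4 that passed the minimum of 1 FPKM, were all higher at ZT12 than at ZT0, with a median log2 fold change of 1.23 against 0.01 over all 9806 genes tested. Of the 4 constitutive genes, 1 was lower, the other 3 did not pass, and their median was 0.00. In all, 4 of the 9 genes tested went up and 1 went down at p under 0.05 in limma, a threshold that 27.4% of all genes passed, and 1 gene had an adjusted p under 0.05, which 10.4% of all genes had.

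Pparg (ENSMUSG00000000440.12, mm10 chromosome 6, 115360951 to 115490399, plus strand) was measured at 5.31, 2.10 and 4.07 FPKM in vehicle ZT0 and at 10.5, 7.80 and 7.52 FPKM in vehicle ZT12. Every ZT12 value was above every ZT0 value. The log2 fold change was 1.04 ± 0.26 (SE), with p under 0.05 in limma and an adjusted p of 0.0530. An antisense gene, Gm44079, overlaps its locus.

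Cidec (ENSMUSG00000030278.11, chromosome 6, 113424634 to 113435760, minus strand) stood at 0.698, 1.81 and 0.913 FPKM in vehicle ZT0 and at 3.65, 3.41 and 4.69 FPKM in vehicle ZT12. The groups did not overlap, and the log2 fold change was 1.23 ± 0.20 (limma adjusted p = 0.0155). This was the only one of the 9 genes past the adjusted threshold in vehicle-treated mice. Its adjusted p was 0.0656 without vehicle ZT0 replicate 3, 0.0565 without vehicle ZT12 replicate 2 and 0.0594 without vehicle ZT12 replicate 3, while p stayed at or below 0.00306 in the 15 settings run.

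Plin4 (ENSMUSG00000002831.13, chromosome 17, 56100591 to 56109803, minus strand), which lies 1797 bases from Plin5, gave 1.19, 2.56 and 1.59 FPKM in vehicle ZT0 and 3.53, 4.34 and 10.2 FPKM in vehicle ZT12. The groups did not overlap, although the 3 values at ZT12 were far apart. The log2 fold change was 1.25 ± 0.35, with p under 0.05 and an adjusted p of 0.0709. Its neighbour Plin5 (chromosome 17, 56111601 to 56117596, minus strand) had 31.0, 55.1 and 34.7 FPKM at ZT0 and 34.1, 37.5 and 44.9 FPKM at ZT12, with a log2 fold change of −0.02 and a 95% interval from −0.53 to 0.50. The ZT0 and ZT12 values of Plin5 overlapped.

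Cidea (ENSMUSG00000024526.9, chromosome 18, 67343604 to 67367785, plus strand) was below the minimum and is given by its values. It was measured at 0.149, 0.227 and 0.0510 FPKM in vehicle ZT0 and at 1.25, 0.635 and 0.879 FPKM in vehicle ZT12. With Policaptil Gel Retard it was at 0.323 and 0.394 FPKM and listed at 0 in the third mouse at ZT0, and at 0.0570 and 0.0779 FPKM and listed at 0 in the third mouse at ZT12. The 3 vehicle ZT12 livers were thus the highest of all 12, as for Pparg. In a fit with no minimum, over 17066 genes, the log2 difference of FPKM + 1 between ZT12 and ZT0 was 0.74 with vehicle (limma adjusted p = 0.0604) and −0.23 with Policaptil Gel Retard (adjusted p = 0.401).

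Plin2 (ENSMUSG00000028494.12, chromosome 4, 86648386 to 86670060, minus strand) moved the other way. It had 295, 378 and 281 FPKM in vehicle ZT0 and 263, 218 and 229 FPKM in vehicle ZT12, with no overlap, and fell by 0.42 on the log2 scale (SE 0.14; limma adjusted p = 0.104). The call at p under 0.05 ended without vehicle ZT12 replicate 2 (−0.36) or vehicle ZT12 replicate 3 (−0.40). Its paralog Plin3, the perilipin that also circulates in the cytosol, fell as well (log2 fold change −0.49, adjusted p = 0.0467).

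Cideb (ENSMUSG00000022219.10, chromosome 14, 55754050 to 55758458, minus strand) did not pass, at 338, 308 and 324 FPKM in vehicle ZT0 and 343, 320 and 321 FPKM in vehicle ZT12. The difference was 0.02, with a 95% interval from −0.17 to 0.22 on the log2 scale, the narrowest of the 9 genes. Fitm2 (ENSMUSG00000048486.6, chromosome 2, 163466379 to 163472629, minus strand) had 7.97, 12.5 and 7.54 FPKM at ZT0 and 10.5, 12.8 and 18.2 FPKM at ZT12, overlapping groups with a log2 difference of 0.52 (95% interval −0.05 to 1.09). Fitm2 passed at p under 0.05 with Cyber-T, the regularized test of the study, and when replicate 2 of vehicle ZT0 (0.73) or replicate 1 of vehicle ZT12 (0.69) was left out, and its difference was 0.32 without vehicle ZT12 replicate 3. Its paralog Fitm1 (ENSMUSG00000022215.6, chromosome 14, 55575617 to 55576954, plus strand) had 106.4, 49.3 and 77.9 FPKM at ZT0 and 128.1, 136.9 and 105.99 FPKM at ZT12. Fitm1 was higher at ZT12 by 0.72 with p under 0.05 (limma adjusted p = 0.134), though the groups just overlapped. The Fitm1 call ended without vehicle ZT0 replicate 3 (0.75), vehicle ZT12 replicate 1 (0.69) or vehicle ZT12 replicate 2 (0.64) and with no minimum, and the difference was 0.43 without vehicle ZT0 replicate 2.

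G0s2 (ENSMUSG00000009633.3, chromosome 1, 193272161 to 193273217, minus strand) varied widely among mice of the same group. It had 316, 587 and 293 FPKM in vehicle ZT0 and 253, 267 and 530 FPKM in vehicle ZT12. The log2 difference was −0.20, with a 95% interval from −1.06 to 0.66.

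With Policaptil Gel Retard, Cidec and Plin4 again came up at ZT12 and Plin2 again went down, while Pparg did not pass. Of the 9 genes tested, 5 went up and 1 went down with p under 0.05 (29.2% of all genes passed), and 2 went up and 1 down with adjusted p under 0.05 (12.4% of all genes). The median of the 3 steatosis-linked genes tested was 1.082 and that of the 4 constitutive genes 0.12, against 0.01 over all genes. Without replicate 3 of Policaptil ZT12, the library with muscle transcripts, 4 were higher, 1 was lower and none had an adjusted p under 0.05.

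Cidec had 0.550, 0.934 and 0.561 FPKM in Policaptil ZT0 and 1.63, 3.29 and 2.94 FPKM in Policaptil ZT12, which do not overlap. It was higher at ZT12 by 1.08 ± 0.20 on the log2 scale (adjusted p = 0.0162). Without 1 library the difference lay between 0.944 and 1.297, and the adjusted p was 0.0539 without Policaptil ZT0 replicate 1, 0.0569 without Policaptil ZT0 replicate 3, 0.0521 without Policaptil ZT12 replicate 2 and 0.0564 without Policaptil ZT12 replicate 3.

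Plin4 had 0.879, 1.10 and 0.540 FPKM in Policaptil ZT0 and 1.72, 6.80 and 7.90 FPKM in Policaptil ZT12, again without overlap. Its log2 fold change of 1.65 ± 0.42 (adjusted p = 0.0473) was the largest of the 9 genes in either treatment. The highest of these values came from the library with muscle transcripts, and without it the log2 fold change was 1.33 (adjusted p = 0.122). Leaving out any 1 library but Policaptil ZT12 replicate 1 took the adjusted p above 0.05, with values from 0.09998 to 0.134.

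Plin2 had 358, 312 and 265 FPKM in Policaptil ZT0 and 227, 193 and 192 FPKM in Policaptil ZT12, without overlap. It fell by 0.60 on the log2 scale (SE 0.13; adjusted p = 0.0286). Without 1 library the adjusted p was 0.0733 (Policaptil ZT0 replicate 1), 0.0780 (Policaptil ZT0 replicate 2), 0.0972 (Policaptil ZT12 replicate 2) and 0.0899 (Policaptil ZT12 replicate 3), while p was at most 0.0108 in the 16 settings run. Plin2, the most abundant perilipin measured here, thus went down at ZT12 in both treatments while Plin4 went up.

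Pparg had 4.37, 5.42 and 5.16 FPKM in Policaptil ZT0 and 4.13, 7.24 and 5.01 FPKM in Policaptil ZT12, so that the ZT12 values lie on both sides of the ZT0 values. The log2 difference was 0.08, with a 95% interval from −0.33 to 0.50. It was −0.11 without Policaptil ZT12 replicate 2.

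Fitm2 had 6.76, 7.98 and 4.48 FPKM in Policaptil ZT0 and 8.53, 13.5 and 11.5 FPKM in Policaptil ZT12, without overlap, and was higher at ZT12 by 0.73 with p under 0.05 (adjusted p = 0.0731). Fitm1 had 61.3, 87.3 and 52.0 FPKM at ZT0 and 90.5, 98.2 and 92.9 FPKM at ZT12, without overlap, and was higher by 0.52 with p under 0.05 (adjusted p = 0.105). Its value in the library with muscle transcripts (92.9 FPKM) lay between those of the other 2 mice of the group, and without that library the difference was 0.52 and no longer passed. The Fitm1 call also ended without Policaptil ZT0 replicate 1 (0.47), Policaptil ZT0 replicate 3 (0.35) or Policaptil ZT12 replicate 2 (0.48), with quantile normalization (0.45) and in a fit over all 12 libraries.

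G0s2 had 134, 437 and 160 FPKM in Policaptil ZT0 and 635, 494 and 353 FPKM in Policaptil ZT12, and these overlapped. It was higher by 1.18 with p under 0.05 (adjusted p = 0.128). The G0s2 call held in 10 of the 16 settings run and ended without Policaptil ZT0 replicate 1 (0.86) or 3 (0.98) and without Policaptil ZT12 replicate 1 (0.98) or 2 (1.16). Plin5 had 43.1, 34.7 and 27.8 FPKM at ZT0 and 37.7, 43.0 and 43.3 FPKM at ZT12, and Cideb 345, 320 and 374 FPKM at ZT0 and 373, 321 and 343 FPKM at ZT12. Neither passed, with log2 differences of 0.24 (95% interval −0.12 to 0.61) and −0.00 (−0.23 to 0.22). Plin5 passed at p under 0.05 without Policaptil ZT0 replicate 1 (0.40), and its difference was 0.09 without Policaptil ZT0 replicate 3.

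**Figure D2:**
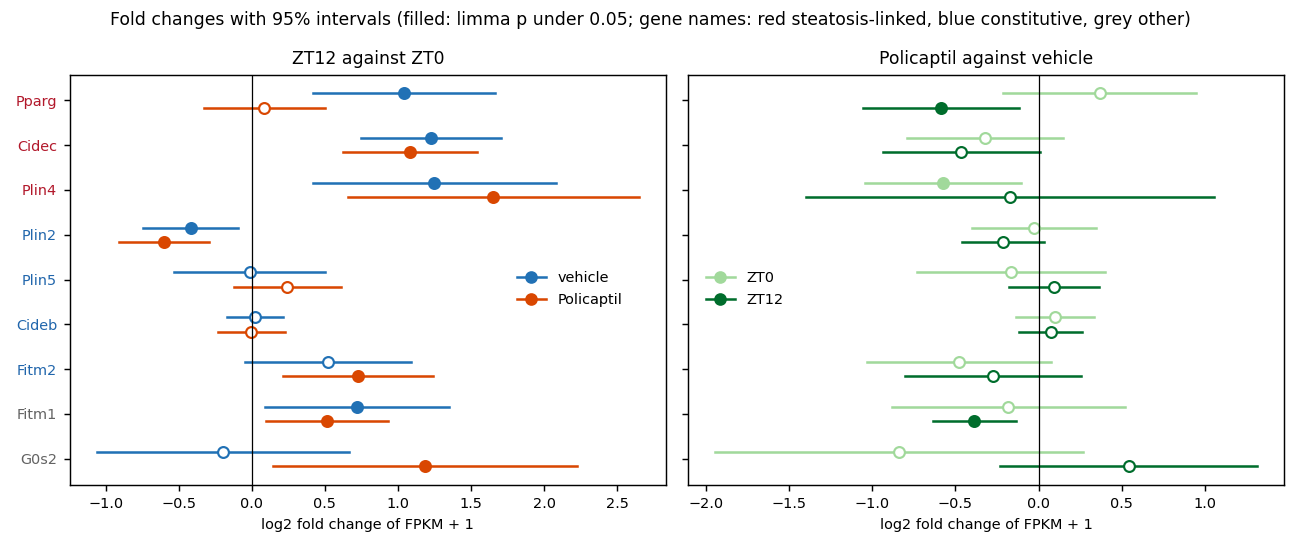
Log2 fold change of FPKM + 1 (horizontal axes) of the 9 genes tested, ZT12 against ZT0 in each treatment on the left and Policaptil Gel Retard against vehicle at each time on the right; lines are 95% intervals and filled points have a limma p under 0.05. Cidec and Plin4 lie right of 0 and Plin2 left of 0 in both treatments, and Pparg lies at 1.04 with vehicle and 0.08 with Policaptil Gel Retard.

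Whether the difference between times itself differed between treatments was tested as an interaction over the 12 libraries. Pparg was the only 1 of the 9 genes with p under 0.05, which 6.63% of all genes had. Its time difference was smaller with Policaptil Gel Retard by 0.95 on the log2 scale (interaction −0.95 ± 0.34 SE). The exact permutation of treatments within each time gave p = 0.025, two-sided, where 0.005 is the smallest value that the 400 arrangements allow. Its null is no treatment difference at either time, so a small p is not specific to the interaction. The adjusted p was 0.663, and 0% of all genes had an adjusted interaction p under 0.05 in limma, although 650 had p under 0.05. The interaction p of Pparg was between 0.0041 and 0.0466 in the 20 settings run, and without 1 library the difference lay between −1.18 and −0.67.

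Cidea, at a far lower level, was likewise highest in vehicle ZT12. Its interaction was −0.97 ± 0.19 in the fit with no minimum (limma p = 0.000502, adjusted p = 0.455, and exact permutation p = 0.03, two-sided). Cidec, by contrast, had an interaction of −0.14 with a 95% interval from −0.81 to 0.53 (exact permutation p = 0.74), and Plin4 one of 0.40 with an interval from −0.94 to 1.74 (exact permutation p = 0.6). Both intervals include 0, and that of Cidec, down to −0.81, also includes a smaller time difference with Policaptil Gel Retard. G0s2 had the largest interaction of the 9 genes, 1.38, with a 95% interval from −0.01 to 2.78 (limma p = 0.0517, exact permutation p = 0.1). That of G0s2 passed the threshold without vehicle ZT0 replicate 3 (1.57), Policaptil ZT0 replicate 2 (1.91), vehicle ZT12 replicate 3 (1.72) or Policaptil ZT12 replicate 3 (1.60).

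Policaptil Gel Retard was compared with vehicle at each time on the same libraries, so these comparisons share mice with those above. At ZT12, Pparg and Fitm1 were the 2 genes of 9 that passed, both lower, where 6.74% of all genes passed. The median log2 difference was −0.46 for the 3 steatosis-linked genes tested and −0.07 for the 4 constitutive genes, against −0.01 over all genes. Pparg was at 4.13 to 7.24 FPKM with Policaptil Gel Retard and at 7.52 to 10.5 FPKM with vehicle, which do not overlap, and the log2 difference was −0.59 ± 0.20 (limma adjusted p = 0.729). The call ended without vehicle ZT12 replicate 1 (−0.45), and likewise without replicate 1 (−0.44) or replicate 3 (−0.55) of Policaptil ZT12. Fitm1 lay at 90.5 to 98.2 FPKM against 105.99 to 136.9 FPKM, a difference of −0.39 ± 0.10 (adjusted p = 0.729), and the call ended in a fit over all 12 libraries.

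Cidec at ZT12 was lower in each Policaptil mouse (1.63 to 3.29 FPKM) than in each vehicle mouse (3.41 to 4.69 FPKM), but the difference of −0.46 did not pass (95% interval −0.94 to 0.01). It passed at p under 0.05 without Policaptil ZT12 replicate 2 (−0.60), with Cyber-T and with the replicate number as a block. The replicate number did not pair the mice, which limits every call made with that block, here and below. Cidea at ZT12 was at or below 0.0779 FPKM in the 3 Policaptil mice and at or above 0.635 FPKM in the 3 vehicle mice, a log2 difference of FPKM + 1 of −0.87 with no minimum (limma adjusted p = 0.528). Plin4 overlapped between treatments at ZT12, with a difference of −0.17 and a 95% interval from −1.40 to 1.05, and without the library with muscle transcripts the difference was −0.49. Plin2 differed by −0.21 (95% interval −0.46 to 0.03), Plin5 by 0.09 (−0.18 to 0.37), Cideb by 0.07 (−0.12 to 0.26), Fitm2 by −0.27 (−0.80 to 0.25) and G0s2 by 0.54 (−0.23 to 1.31). Plin2 passed at p under 0.05 without Policaptil ZT12 replicate 1 (−0.29), with quantile normalization (−0.26) and with the replicate number as a block. G0s2 passed without vehicle ZT12 replicate 3 (0.88) and with Cyber-T. No gene of the whole table (0%) had an adjusted p under 0.05 in limma at ZT12, while 661 had p under 0.05 and Cyber-T gave 23 with adjusted p under 0.05, none of them among the 9.

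At ZT0, 1 gene of the 9 passed, against 9.23% of all genes. The class medians were −0.32 for the 3 steatosis-linked genes tested and −0.10 for the 4 constitutive genes, against −0.02 over all genes. Plin4 was lower with Policaptil Gel Retard, at 0.540 to 1.10 FPKM against 1.19 to 2.56 FPKM with vehicle. The log2 difference was −0.58 ± 0.20 (adjusted p = 0.506), and the call ended without vehicle ZT0 replicate 2 (−0.38) or Policaptil ZT0 replicate 3 (−0.45) and in a fit over all 12 libraries. The other 8 gave intervals that include 0, such as −0.21 to 0.95 for Pparg, −0.79 to 0.15 for Cidec, −0.40 to 0.35 for Plin2 and −1.95 to 0.26 for G0s2. Of these, 3 passed at p under 0.05 with 1 library left out: Pparg without vehicle ZT0 replicate 1 (0.59, from 0.37), and G0s2 (−1.36, from −0.84) and Fitm2 (−0.63, from −0.48) without Policaptil ZT0 replicate 2. G0s2 and Fitm2 also passed with Cyber-T, and G0s2, Fitm2 and Cidec with the replicate number as a block. Here too 0% of all genes had an adjusted p under 0.05 in limma, with 905 at p under 0.05, and Cyber-T gave 69, none of them among the 9.

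Over both times, 8 of the 9 genes had a lower mean with Policaptil Gel Retard, with Cideb the exception. How many of all genes had a lower mean was not counted. The median of all genes was −0.02, and 616 were lower and 375 higher at p under 0.05. Of the 9 genes 2 passed, where 10.1% of all genes did, and the other intervals included 0. Cidec was lower by 0.39 (log2 difference −0.39 ± 0.15, limma p = 0.0207, adjusted p = 0.419; exact permutation p = 0.03, two-sided) and did not pass in limma with vehicle ZT0 replicate 2 (−0.31) or vehicle ZT12 replicate 3 (−0.34) left out. Fitm2 was lower by 0.38 (−0.38 ± 0.17, exact permutation p = 0.1) and passed in only 8 of the 20 settings run. The Fitm2 call was lost with no minimum, with a minimum mean of 5 FPKM, with both other scalings and without each of 8 libraries (vehicle ZT0 replicates 1 and 2, Policaptil ZT0 replicates 1 and 3, vehicle ZT12 replicates 2 and 3, and Policaptil ZT12 replicates 1 and 3), between −0.27 and −0.40. Plin2 differed by −0.12 (95% interval −0.33 to 0.10), Plin5 by −0.04 (−0.35 to 0.28) and Cideb by 0.09 (−0.04 to 0.21). Fitm1 differed by −0.28 and passed without vehicle ZT0 replicate 2 (−0.42) or Policaptil ZT0 replicate 2 (−0.39). Across the table, 2 genes, or 0.0204%, had an adjusted p under 0.05, neither of them among the 9.

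Within a group, several droplet genes could have the same highest or lowest mouse. In vehicle ZT0, replicate 2 was the highest of the 3 mice for Cidea, Cidec, Plin4, Plin2, Plin5, Fitm2 and G0s2, and the lowest for Pparg, Cideb and Fitm1. Cidec and Plin4 had the same highest mouse in 3 of the 4 groups, Cidec and Fitm2 in 4 of 4, and Plin4 and Plin5 in 3 of 4 with the same lowest mouse in 4 of 4. Pparg and Cidec shared the highest mouse in 2 of 4 groups, and in 1 group the highest of one was the lowest of the other. Pparg and Fitm1 shared the highest mouse in 3 of 4 groups and the lowest in 3 of 4. Pparg and Cidea shared the highest in 3 of 4 and the lowest in 0 of 4. Cidea and Plin2 shared the highest in 2 of 4 and the lowest in 4 of 4. The pairs named were picked from all pairs of the genes followed. With 3 mice a group these are counts of ranks, given with no test. Of genes outside those followed, replicate 2 of vehicle ZT0 was the highest for Angptl4 and the lowest for Scd1 and Srebf1. For Cd36 it lay between the other mice of its group. How many of all genes had the same highest or lowest mouse was not counted. Whether the shared ranks are particular to droplet genes was therefore not tested.

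**Figure D3:**
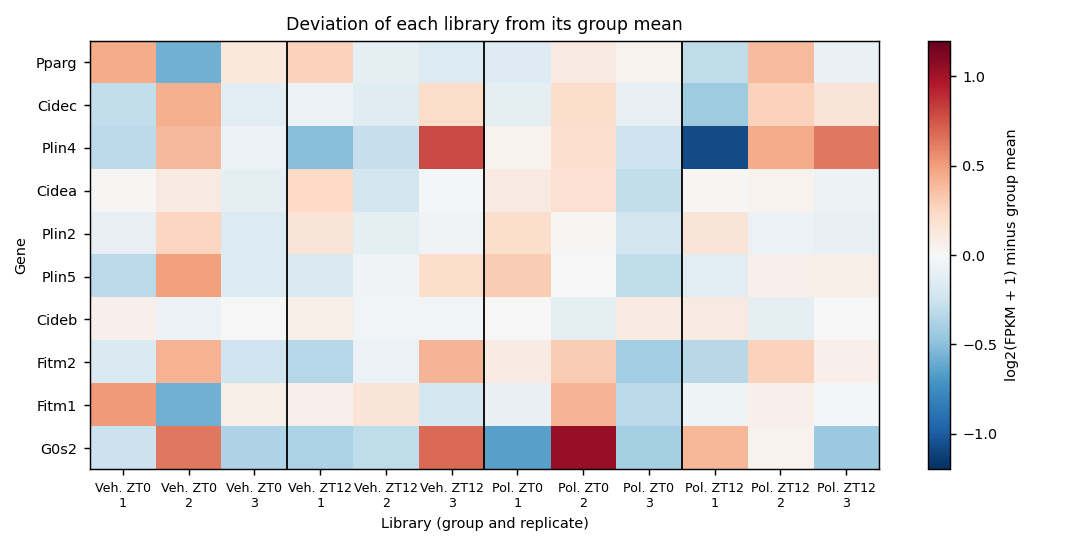
Difference of log2(FPKM + 1) from the group mean (color) for each gene (rows) in each library (columns, grouped by treatment and time, Veh. for vehicle and Pol. for Policaptil Gel Retard). Replicate 2 of vehicle ZT0 is above its group mean for Cidec (0.43), Plin4 (0.39), Plin5 (0.49) and G0s2 (0.63) and below it for Pparg (−0.58) and Fitm1 (−0.58).

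The genes with the pattern most like each of 3 members were ranked by Pearson's r of log2(FPKM + 1) over the 12 libraries, as a description, since the libraries share groups. For Cidec they were Pex11a (0.97), Wwp1 (0.97), Cpt1a (0.97), Anpep (0.97) and Oplah (0.96). Pex11a encodes a factor of peroxisome division and Cpt1a the carnitine palmitoyltransferase that admits fatty acids to mitochondria. Cpt1a stood at 75.2 ± 12.6 FPKM in vehicle ZT0 and 129.4 ± 10.2 in vehicle ZT12, and at 74.3 ± 8.80 in Policaptil ZT0 and 108.1 ± 7.70 in Policaptil ZT12 (SD, n = 3). For Plin2 they were Nek6 (0.95), Lrif1 (0.94), Trim21 (0.94), Gpd1 (0.93) and Tdrd7 (0.93), of which Gpd1, the cytosolic glycerol-3-phosphate dehydrogenase, also led once group means were subtracted (0.95), ahead of Smpd4 (0.94) and Lrif1 (0.92).

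For Pparg the most alike were Sri (0.93), Pir (0.87), Mthfs (0.86), B330016D10Rik (0.85) and Acss3 (0.85). None of the other 9 members was ranked, as members were left out of the ranking. With group means subtracted, the leading genes were Rpl38 (0.95), a ribosomal protein gene, Smim19 (0.90) and Mpc1 (0.90), a subunit of the mitochondrial pyruvate carrier. Those of Cidec were Zfp612 (0.95), Rreb1 (0.95) and Nup214 (0.94).

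Other proteins of the droplet were counted from a list of 27 genes, 26 of them in the table and 22 tested. At p under 0.05, 7 went up and 3 down at ZT12 in vehicle-treated mice and 6 up and 4 down with Policaptil Gel Retard, where 27.4% and 29.2% of all genes passed, with medians of −0.01 and 0.13. Without the library with muscle transcripts, 5 went up and 4 down with Policaptil Gel Retard. Dgat2, the last step of triglyceride synthesis, rose by 0.59 with vehicle (adjusted p = 0.0197) and by 0.71 with Policaptil Gel Retard (adjusted p = 0.00477). Pnpla2, which encodes adipose triglyceride lipase, the target of G0s2, rose by 0.56 (adjusted p = 0.0138) and 0.52 (adjusted p = 0.0404). Mgll, monoglyceride lipase, rose by 0.78 (adjusted p = 0.0280) and 0.68 (adjusted p = 0.0225). Hsd17b11, a droplet-bound short-chain dehydrogenase, rose by 0.72 with vehicle (adjusted p = 0.0284). In the other direction, besides Plin3, Hilpda, which like G0s2 inhibits adipose triglyceride lipase, fell by 0.66 with vehicle (adjusted p = 0.0325, named after its value was seen) and had a difference of −0.21 with Policaptil Gel Retard (adjusted p = 0.346). Between treatments 1 of the 22 passed at ZT0 (Hsd17b11, 0.44 higher with Policaptil Gel Retard) and 1 at ZT12 (Plin3, 0.27 higher), both named after their values were seen, where 9.23% and 6.74% of all genes passed, and without the library with muscle transcripts 3 passed at ZT12.

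PPARγ targets outside the 10 genes, 23 listed and 21 tested, gave 5 higher and 3 lower at ZT12 with vehicle and 8 higher and 3 lower with Policaptil Gel Retard, where 27.4% and 29.2% of all genes passed, with medians of 0.20 and 0.36. Without the library with muscle transcripts, 12 were higher and 3 lower with Policaptil Gel Retard. The share of all genes in that fit is not given by itself, and it lay within 2329 to 2797 of 9806 genes. Ucp2, a mitochondrial carrier, rose by 1.02 with vehicle (adjusted p = 0.00275) and had a difference of 0.68 with Policaptil Gel Retard (adjusted p = 0.0730). Angptl4, an inhibitor of lipoprotein lipase, rose by 1.53 with Policaptil Gel Retard (adjusted p = 0.0047) and had a difference of 0.97 with vehicle (adjusted p = 0.400). Pck1, of gluconeogenesis and glyceroneogenesis, rose by 1.79 with Policaptil Gel Retard (adjusted p = 0.00638) and had a difference of 0.74 with vehicle (adjusted p = 0.279). Lpl, the lipase itself, fell by 0.65 with Policaptil Gel Retard (adjusted p = 0.0247, named after its value was seen) and had a difference of −0.69 with vehicle (adjusted p = 0.0522), and Pdk4, a kinase that inhibits pyruvate dehydrogenase, fell by 1.00 with vehicle (adjusted p = 0.0472) and had a difference of −0.35 with Policaptil Gel Retard (adjusted p = 0.417). Neither the Angptl4 nor the Pck1 interaction passed (0.56 and 1.06, adjusted p = 0.937 and 0.755). The highest Policaptil ZT12 values of Angptl4 (182 FPKM) and Pck1 (2044 FPKM) came from the library with muscle transcripts. At ZT12, where 6.74% of all genes passed, 5 of the 21 were lower with Policaptil Gel Retard and 1 was higher, with a list median of −0.00: Mogat1 (−0.67), Gyk (−0.41), Acsl1 (−0.37), Cd36 (−0.76) and Gpd1 (−0.17) were lower and Fasn (1.499) higher, all with an adjusted p of 0.601 or more and named after their values were seen. At ZT0, 0 of the 21 had p under 0.05 in limma, against 9.23% of all genes. The median interaction of the list was −0.12, against 0.00 over all genes, but 0.01 without the library with muscle transcripts.

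Partners of PPARγ and factors known to act on its gene were 22 listed and 20 tested. With vehicle 1 was higher and 2 were lower at ZT12, and with Policaptil Gel Retard 8 were higher and 2 lower, where 27.4% and 29.2% of all genes passed, with medians of 0.09 and 0.11. Between treatments 2 passed at ZT0, Cebpb (−0.48) and Klf15 (−0.27), and 3 at ZT12, Srebf1 (0.94), Mlxipl (0.35) and Ppard (0.39), of which Mlxipl, Klf15 and Ppard were named after their values were seen. Of all genes, 9.23% passed at ZT0 and 6.74% at ZT12, and without the library with muscle transcripts 2 of the 20 passed at ZT12. Cebpb, which acts before Pparg in fat cell differentiation, rose by 1.49 with Policaptil Gel Retard (adjusted p = 0.00047) and by 0.76 with vehicle (adjusted p = 0.0902). Arntl, the clock gene that encodes BMAL1, fell by 1.64 with vehicle (adjusted p = 0.0117) and by 1.35 with Policaptil Gel Retard (adjusted p = 0.00663). Srebf1, of fatty acid synthesis, rose by 1.04 (adjusted p = 0.0183) with Policaptil Gel Retard. The interaction had p under 0.05 for 3 of the 20, Klf15 (0.55), Cebpb (0.73) and Ppard (0.93), each opposite in sign to that of Pparg and named, but for Cebpb, after the values were seen, where 6.63% of all genes passed. All lists and both classes were chosen with results of these data known, so the counts describe them and are no independent evidence.

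**Figure D4:**
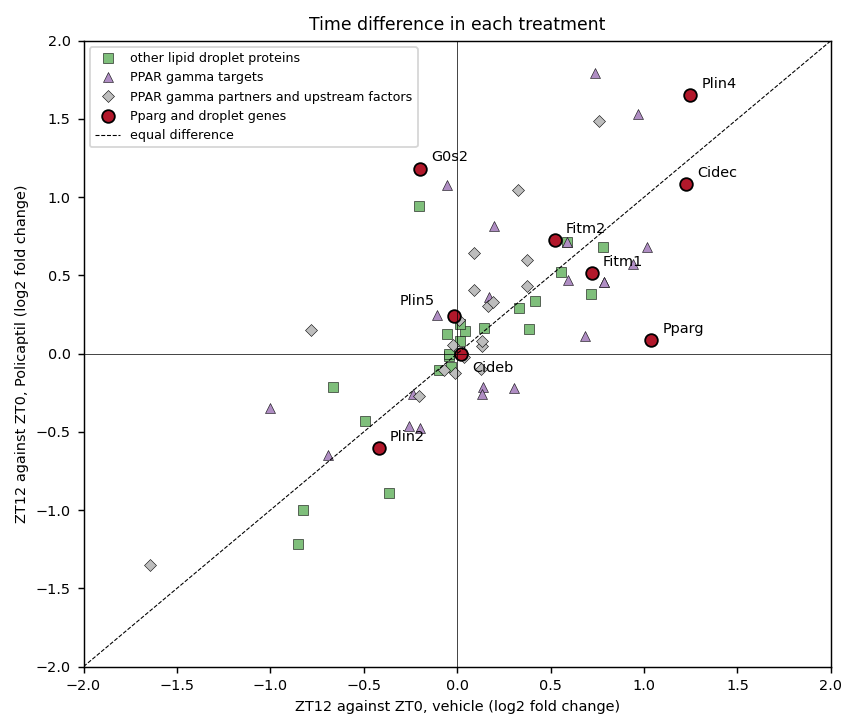
Log2 fold change of FPKM + 1 at ZT12 against ZT0 with vehicle (horizontal axis) and with Policaptil Gel Retard (vertical axis); red circles are the 9 genes tested, other symbols are the gene lists, and the dashed line marks an equal difference. Cidec, Plin4, Plin2, Fitm1 and Fitm2 lie near the line, Pparg lies below it at 1.04 and 0.08, and G0s2 above it at −0.20 and 1.18; both axes come from separate mice.

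Markers of other cells were read beside these results, since Cidec, Cidea, Plin4 and Pparg are high in fat and Fitm1, Plin4 and Plin5 are expressed in muscle. Of 9 adipocyte markers, all in the table and 4 tested, Lep, Retn and Ucp1 were listed at 0 in every library, and Adipoq and Plin1 were at or below 0.0492 FPKM in all 12. The sum of the 9 markers was 37.9 to 70.2 FPKM in vehicle ZT12, 24.7 to 32.8 in vehicle ZT0, 28.1 to 30.3 in Policaptil ZT0 and 24.8 to 41.9 in Policaptil ZT12. The 41.9 came from the library with muscle transcripts. The gene that moved most was Cfd, complement factor D, at 11.4, 42.8 and 26.1 FPKM in vehicle ZT12 and at 2.74, 9.47 and 11.2 FPKM in Policaptil ZT12. Cfd was higher at ZT12 by 1.91 with vehicle (limma adjusted p = 0.0598) and by 1.75 with Policaptil Gel Retard (adjusted p = 0.130), and over both times its log2 difference between Policaptil Gel Retard and vehicle was −1.57 (adjusted p = 0.336). The other adipocyte markers did not all move with Cfd. For time, 3 of the 4 tested were above 0 in each treatment, while Fabp4 was below (−0.26 and −0.46). Over both times Fabp4 (0.21) and Adrb3 (0.31) were above 0 and Lipe (−0.10) was below. The median of the 4 was 0.27 and 0.19 for time with vehicle and Policaptil Gel Retard, and 0.05 over both times. The part of these markers in the results was not tested.

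Of the stellate cell markers (6 listed, 5 tested), 1 was lower at ZT12 with vehicle (Des, named after its value was seen) and 5 were lower with Policaptil Gel Retard, 4 without the library with muscle transcripts. Of all genes, 27.4% and 29.2% passed. All 5 were below 0 in both treatments, with medians of −0.25 and −0.51. Their sums were 32.6 to 59.9 FPKM in vehicle ZT0, 30.0 to 46.7 in vehicle ZT12, 49.7 to 67.1 in Policaptil ZT0 and 24.5 to 43.2 in Policaptil ZT12, overlapping between times with vehicle. Macrophage markers (8 of 9 in the table, 5 tested) summed to 28.8 to 35.9 FPKM in vehicle ZT0 and to 16.0 to 28.5 FPKM in Policaptil ZT0, without overlap, and to 14.5 to 40.8 and 20.02 to 30.7 FPKM at ZT12. What these cells contributed to the droplet genes was not tested.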

How the data were processed

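The deposited table gives FPKM per gene for 12 liver libraries. In the methods the authors describe single-end reads of stranded TruSeq mRNA libraries, aligned with ELAND v2e to mm10 and UCSC splice junctions, without reads that match several places, and call the unit RPKM. The labels instead give the TruSeq RNA v2 chemistry, TopHat and Cuffnorm, so it is uncertain whether strand was used, and genes that overlap on opposite strands (Pparg, Cidea, Plin4, Cideb, Fitm2, Fitm1 and G0s2) may share reads. Of 24138 lines, 289 repeat a symbol and the one with the highest mean was kept. Groups came from the sample titles.

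Values were analysed as log2(FPKM + 1) with limma 3.58.1 (trend) in R 4.3.3, two-sided, over 9806 genes (a mean over the 12 libraries of 1 FPKM or more), a filter that 9 of the 10 genes passed. Each pairwise comparison used its 6 libraries, and the interaction and the treatment over both times used all 12. Calls were made at p under 0.05, the threshold of the study, and at Benjamini-Hochberg adjusted p under 0.05. Fold changes on this scale understate those of low genes. SE and 95% intervals come from the fit. Exact tests permuted treatments within each time, under a null of no treatment difference at either time. Coordinates come from GENCODE vM21, in which all 10 genes were found. The 10 genes, their classes and the lists were chosen with earlier results of these data known. List genes named have an adjusted p under 0.05, at most 4 per list by p, unless stated. FPKM are not whole multiples of 1 read, so no counts were recovered. Of these steps, only the limma fit of the treatment at ZT0 was tested on simulated data. Some results of the lists are not reported here.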

Additional observations from a re-analysis of the deposited data

Results flagged for a closer look

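2 of the 10 genes were flagged because their interaction had p under 0.05, in limma or by exact permutation. Of all genes, 6.63% had such a p in limma, and 1050 of 17066 had it in the fit with no minimum used for Cidea. For Pparg, ZT12 minus ZT0 with Policaptil Gel Retard minus the same with vehicle was −0.95 on the log2 scale (limma p = 0.0177, adjusted p = 0.663; exact permutation p = 0.025), with 3 of 3 vehicle ZT12 mice above every other library. For Cidea it was −0.97 (no minimum; limma p = 0.000502, adjusted p = 0.455; exact permutation p = 0.03), again with 3 of 3 vehicle ZT12 mice above every other library, at levels of 1.25 FPKM and less. Both were picked from 10 genes, and neither passed the adjustment over all genes. How many of all genes had the same order of libraries was not counted. Groups of 3 mice were not tested for outliers.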

How the results depend on the processing

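The replicate numbers did not pair the mice: same-numbered libraries of 2 groups had correlations of their deviations from −0.279 to 0.341, over 0.1 in 4 of 18. With the replicate block, 279 genes had an adjusted p under 0.05 for time in vehicle, 709 for time with Policaptil Gel Retard, 2 at ZT0 and 0 over both times; of the 9 genes, 0 had an adjusted p under 0.05 for time in vehicle and 4 had p under 0.05 at ZT0 and 4 at ZT12. With no minimum, these were 515, 639 and 1 genes with adjusted p under 0.05 for both time comparisons and for both times together, 1392, 1139 and 1050 with p under 0.05 at ZT0, at ZT12 and in the interaction, 0 and 0 of the members with adjusted p under 0.05 for time, and 1 with p under 0.05 over both times. With a minimum mean of 5 FPKM, which Cidec and Plin4 do not reach, 574, 430 and 422 genes had p under 0.05 at ZT0, at ZT12 and in the interaction, and of the members 3 for time in vehicle, 0 at ZT0 and 0 over both times, with 1 at adjusted p under 0.05 for time with Policaptil Gel Retard. A fit over all 12 libraries gave 1539 genes and 2 members with adjusted p under 0.05 for time in vehicle, and 0 and 1 members with p under 0.05 at ZT0 and ZT12. Cyber-T gave 5 and 6 members with adjusted p under 0.05 for time, 3 and 4 with p under 0.05 at ZT0 and ZT12, and 69 and 23 genes with adjusted p under 0.05 at these times. For Cyber-T and the replicate block, the share of all genes with p under 0.05 is not given. That of Cyber-T with adjusted p under 0.05 for time is not given either. These member counts therefore cannot be set against all genes. Median-ratio scaling and quantile normalization gave 1 member with p under 0.05 over both times and 0 genes with adjusted p under 0.05, and turned the sign of Plin2 at ZT0 (0.00035 and 0.0025); quantile normalization also turned that of Cideb for time in vehicle (−0.029). Neither scaling moved the median of all genes by 0.1. The causes were not tested.

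Without 1 library each, members with p under 0.05 numbered 3 to 6 for time in vehicle, 0 to 3 at ZT0, 1 to 3 at ZT12, 1 to 2 in the interaction and 0 to 3 over both times. With adjusted p under 0.05 they numbered 0 to 3 for time in each treatment. Genes with adjusted p under 0.05 numbered 226 to 869 (vehicle), 535 to 1014 (Policaptil Gel Retard), 0 to 7 (ZT0), 0 to 1 (ZT12), 0 to 1 (interaction) and 0 to 1 (both times). Of the 9806 genes tested, those with p under 0.05 numbered 1990 to 2796 (vehicle), 2329 to 2797 (Policaptil Gel Retard) and 525 to 1188 (ZT0). They numbered 485 to 889 at ZT12, 543 to 896 in the interaction and 698 to 1161 over both times. Log2 differences whose sign turned, none of them with p under 0.05, ranged as follows. For time in vehicle they were −0.18 to 0.23 for Plin5, −0.014 to 0.053 for Cideb and −0.54 to 0.12 for G0s2. With Policaptil Gel Retard they were −0.11 to 0.24 for Pparg and −0.060 to 0.052 for Cideb. At ZT0 they were −0.13 to 0.10 for Plin2, −0.33 to 0.078 for Plin5 and −0.47 to 0.074 for Fitm1, and at ZT12 −0.49 to 0.37 for Plin4. In the interaction they were −0.36 to 0.072 for Cidec, −0.082 to 0.030 for Cideb, −0.0027 to 0.41 for Fitm2 and −0.46 to 0.086 for Fitm1. Over both times they were −0.29 to 0.010 for Pparg, −0.094 to 0.086 for Plin5 and −0.32 to 0.072 for G0s2. With a pseudocount of 0.1 the interaction of Cidea was −3.07. Absolute depth is unknown, so what it limits was not tested.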
